A study of Homo sapiens with 6 samples.

Results

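The aryl hydrocarbon receptor and its closest genes were followed in 143B cells, a human osteosarcoma line derived from HOS cells, given PBS or TPBC-PEG for 24 h. The 6 genes were chosen by name: the receptor AHR, its partner ARNT, the repressor AHRR, and the induced genes TIPARP, CYP1A1 and CYP1B1. All 6 were found among the 60683 rows of the count table, and all 6 passed the filter on low counts. Of these genes CYP1B1 rose 1.30-fold with TPBC-PEG, TIPARP rose 1.10-fold, and AHR, ARNT, AHRR and CYP1A1 did not pass the test.

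The study sequenced RNA from 3 libraries of cells given PBS and 3 of cells given TPBC-PEG, an agent that the series title places in photodynamic therapy, in which a compound forms reactive oxygen species under light. Sample titles give 3 µM TPBC-PEG and the treatment protocol 300 µM, so the dose is not settled, and the labels do not say whether these cells saw light. All libraries come from this single line. The labels do not describe the replicates as separate cultures, so the p-values speak only of library-to-library spread, and that spread may be technical. Library totals ran from 15726323 to 20486584 counts.

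AHR is a ligand-activated transcription factor of the bHLH-PAS family, best known as the receptor for dioxins, polycyclic aromatic hydrocarbons and indoles derived from tryptophan. Without ligand it rests in the cytosol with the chaperone HSP90 and the co-chaperone p23. With ligand it enters the nucleus, pairs with ARNT and binds a short DNA element, after which CYP1A1, CYP1B1, TIPARP and AHRR are typically induced. AHRR competes for ARNT and TIPARP attaches ADP-ribose to the receptor, so that both act as brakes on it.

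The cells were checked against marker genes. Of 8 markers of mesenchymal or osteosarcoma cells VIM was the most abundant, at 2577 and 2344 CPM (gene counts put on a common library size after TMM scaling, a method that evens out library composition) with PBS and TPBC-PEG, and the 8 summed to 3070 to 3116 CPM with PBS and 2756 to 2875 CPM with TPBC-PEG; the part of that difference in the results was not tested. Members of this list went both ways: VIM, SPARC, COL1A1 and CDH11 were called lower (log2 fold change -0.14, -0.18, -0.48 and -0.48), RUNX2 and SPP1 higher (0.55 and 0.79), and ALPL did not pass (-0.24). COL1A2 was almost absent, at 0.0594 and 0.0503 CPM. Summed leukocyte markers stayed between 0.0522 and 0.241 CPM and endothelial markers between 0.193 and 0.505 CPM in all libraries. Epithelial markers summed to 15.3 to 17.8 CPM, nearly all of it EPCAM, and CDH1, KRT19 and KRT5 were near 0.

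The receptor gene AHR lies on chromosome 7, from 16916359 to 17346152 on the plus strand of GRCh38 (GENCODE 29). Its level was 16.8, 17.3 and 16.1 CPM in PBS replicates 1 to 3 and 20.6, 16.9 and 19.2 CPM in TPBC-PEG replicates 1 to 3. TPBC-PEG replicates 1 and 3 stood above every PBS library, and replicate 2 stood within the PBS range. The log2 fold change was 0.17 ± 0.09 (SE), with a 95% interval from -0.01 to 0.35, and AHR did not pass the test (edgeR quasi-likelihood, Benjamini-Hochberg adjusted p = 0.146). On the fold scale that interval runs from 0.993 to 1.28, so it holds both no change and rises of up to 1.28-fold. Without TPBC-PEG replicate 1 the log2 value was 0.10 and without TPBC-PEG replicate 2 it was 0.25, and neither passed (adjusted p = 0.52 and 0.0551). Of AHR's exon length 29.4% is shared with AC019117.2 on the same strand, which had a count of 0 in all libraries, and 3.34% with AC073332.1 on the other strand, at 0.482 ± 0.151 and 0.44 ± 0.198 CPM (SD, n = 3).

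ARNT, on chromosome 1 from 150809705 to 150876768 on the minus strand, encodes the partner that AHR needs to bind DNA and that the hypoxia factors share. Its level was 58.9, 65.4 and 71.6 CPM with PBS and 69.6, 67.9 and 72.5 CPM with TPBC-PEG. The PBS libraries spread more widely than the TPBC-PEG libraries and reached into their range. ARNT differed by 0.10 ± 0.06 (SE) on the log2 scale and did not pass (edgeR quasi-likelihood, Benjamini-Hochberg adjusted p = 0.171). That result rested on PBS replicates 1 and 3. Without PBS replicate 3, the highest of its group, ARNT passed as higher at 0.17 (adjusted p = 0.0338, edgeR quasi-likelihood), and without PBS replicate 1, the lowest, the value was 0.02 (adjusted p = 0.81). With libraries scaled by total counts alone ARNT passed at 0.15 (adjusted p = 0.0414). None of its exon length overlaps another annotated gene.

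AHRR encodes the repressor that shares the DNA-binding and ARNT-pairing part of AHR, and lies on chromosome 5 from 304176 to 438291 on the plus strand. Its mean CPM was the lowest of the 6 in both groups, although CYP1A1 was level with it or lower in some libraries. AHRR had 30, 34 and 21 counts in the PBS libraries and 31, 47 and 38 in the TPBC-PEG libraries. These counts correspond to 1.56, 1.88 and 1.32 CPM with PBS and to 1.59, 2.27 and 2.38 CPM with TPBC-PEG. TPBC-PEG replicates 2 and 3 were above all PBS libraries and replicate 1 was among them. The log2 difference of 0.37 ± 0.27 (SE) was close in size to that of CYP1B1, but its 95% interval ran from -0.17 to 0.91 and it did not pass (edgeR quasi-likelihood, Benjamini-Hochberg adjusted p = 0.308). Counting error alone was wide here. The 21 counts of PBS replicate 3 carry an exact Poisson 95% interval from 13.0 to 32.1 counts, which covers counting error only. The 95% interval of the AHRR fold change runs from 0.892-fold to 1.88-fold, so it holds no change as well as a rise or a small fall. AHRR shares 3.18% of its exon length with PDCD6 on the same strand. PDCD6 was far more abundant, at 25.6 ± 2.45 CPM with PBS and 22.9 ± 3.25 CPM with TPBC-PEG (SD, n = 3). AHRR stood at 1.59 ± 0.281 and 2.08 ± 0.426 CPM. How reads in shared exons were counted is not named, and the part of PDCD6 reads in the AHRR counts was not tested.

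Among the induced genes, TIPARP encodes the mono-ADP-ribosyltransferase PARP7 and lies on chromosome 3 from 156673235 to 156706770 on the plus strand. It was the most abundant of the 6, at 112, 116 and 114 CPM with PBS and 131, 124 and 122 CPM with TPBC-PEG. All TPBC-PEG libraries were above all PBS libraries, the lowest at 122 CPM and the highest PBS library at 116 CPM. TIPARP rose by a log2 fold change of 0.14 ± 0.04 (SE), or 1.10-fold (95% interval 1.04 to 1.17; edgeR quasi-likelihood, Benjamini-Hochberg adjusted p = 0.0107). The call was lost without PBS replicate 1 (0.12, edgeR adjusted p = 0.0555), without TPBC-PEG replicate 1 (0.11, adjusted p = 0.112) and when a trend of fold change with GC content was removed, a setting chosen after seeing the data (0.09, adjusted p = 0.0905). Its antisense neighbour TIPARP-AS1 shares 0.733% of the exon length and stood at 1.31 ± 0.31 and 1.30 ± 0.248 CPM (SD, n = 3).

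CYP1B1 encodes a monooxygenase that oxidises polycyclic hydrocarbons and oestradiol and is expressed in many tissues outside the liver, mesenchymal ones among them. The gene lies on chromosome 2 from 38066973 to 38109902 on the minus strand. Its level was 64.0, 60.8 and 61.3 CPM with PBS and 82.0, 83.4 and 76.8 CPM with TPBC-PEG. The groups were apart, the lowest TPBC-PEG library at 76.8 CPM and the highest PBS library at 64.0 CPM. CYP1B1 rose 1.30-fold (95% interval 1.21 to 1.40), a log2 fold change of 0.38 ± 0.05 (SE; edgeR quasi-likelihood, Benjamini-Hochberg adjusted p = 4.32e-08). Over 18 alternative analyses, 6 of them leaving out 1 library each, the value stayed between 0.342 and 0.425 (log2) and passed in each (adjusted p from 5.07e-11 to 7.67e-06, by edgeR, DESeq2 or limma-voom).

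Counts of CYP1B1 could include reads of the overlapping genes CYP1B1-AS1 and RMDN2, because no source used here says whether counting was strand-specific. The 2 genes on the other strand cover 12.9% of its exon length. CYP1B1-AS1 stood at 0.917 ± 0.358 and 1.49 ± 0.351 CPM (SD, n = 3) and RMDN2 at 6.39 ± 1.39 and 5.44 ± 0.315 CPM, against 62.0 ± 1.72 and 80.7 ± 3.51 CPM for CYP1B1. Neither passed the test (edgeR, adjusted p = 0.101 and 0.254).

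CYP1A1, on chromosome 15 from 74719542 to 74725610 on the minus strand, encodes the monooxygenase whose mRNA is the usual readout of AHR activation. It was scarce, with 46, 29 and 21 counts with PBS and 56, 33 and 34 with TPBC-PEG, or 2.40, 1.61 and 1.32 CPM against 2.88, 1.59 and 2.13 CPM. Replicate 1 was the highest in both groups, and the groups overlapped over most of their range. The log2 difference was 0.29 ± 0.27 (SE; 95% interval -0.25 to 0.83) and did not pass (edgeR quasi-likelihood, Benjamini-Hochberg adjusted p = 0.449). It moved from 0.03 without TPBC-PEG replicate 1 to 0.57 without PBS replicate 1, and passed in neither case (adjusted p = 0.955 and 0.167). The interval holds changes from 0.841-fold to 1.77-fold, so an induction above 1.77-fold lies outside it. CYP1A2, the neighbouring CYP1 gene expressed mainly in liver, had a count of 0 in all 6 libraries, where 3 counts would be 0.145 to 0.189 CPM.

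**Figure D1:**
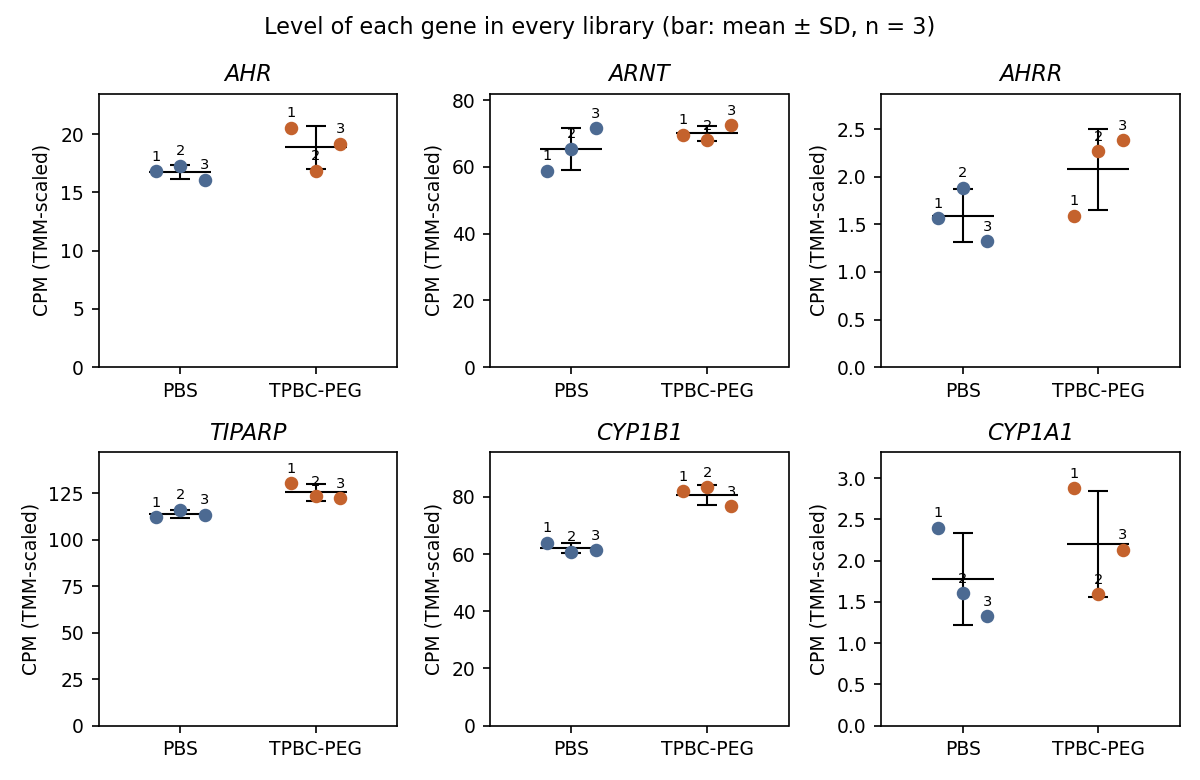
Level of each gene in CPM (TMM-scaled, linear axes from 0) in the 3 PBS (blue) and 3 TPBC-PEG (orange) libraries, numbered by replicate, with mean ± SD. CYP1B1 and TIPARP are the genes whose groups do not overlap; AHRR and CYP1A1 lie below 3 CPM.

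Across all 15846 genes tested, 33.2% were called at an adjusted p under 0.05, 16.2% as higher and 16.9% as lower. Of the 6 AHR genes 2 were called, both higher, which is a share of 33.3%. PBS and TPBC-PEG libraries formed separate ranges for 43.4% of all genes, with TPBC-PEG above for 22.1%, and for CYP1B1 and TIPARP among the 6, with TPBC-PEG above in both. A share this close to the background is not a result about the 6 genes as a set. All 6 log2 differences were above 0, with a median of 0.23 against 0.01 for all genes tested.

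The changes were also modest in size. Over all genes tested the median absolute log2 fold change was 0.17, and 90% of genes were under 0.53. CYP1B1 was 2969th of 15846 genes by absolute log2 fold change and 623rd by p-value. TIPARP was 9310th by size and 3809th by p-value, a small change with a small error.

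**Figure D2:**
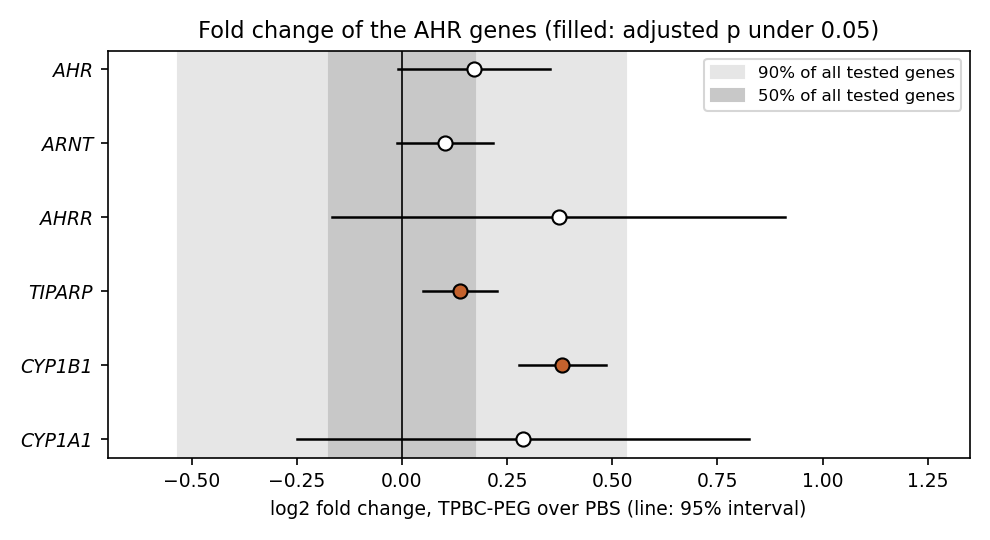
Log2 fold change of TPBC-PEG over PBS for each gene with its 95% interval (horizontal axis); filled points have an adjusted p under 0.05. Shaded bands reach to the median (0.17) and the 90th percentile (0.53) of the absolute log2 fold change of all tested genes. All 6 points lie inside the outer band, and the intervals of AHRR and CYP1A1 are the widest.

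Levels of different genes were compared per kilobase of annotated exon. With PBS the order was TIPARP at 22.6 ± 0.407, CYP1B1 at 10.3 ± 0.286, ARNT at 10.0 ± 0.974, AHR at 2.07 ± 0.0752, CYP1A1 at 0.517 ± 0.162 and AHRR at 0.207 ± 0.0366 CPM per kb (SD, n = 3). CYP1B1 and ARNT did not differ beyond their spread with PBS, since ARNT ran from 9.04 to 11.0 and CYP1B1 from 10.1 to 10.6 CPM per kb, and the other neighbours in this order did not overlap. With TPBC-PEG CYP1B1, at 13.4 ± 0.583, was above ARNT, at 10.7 ± 0.357 CPM per kb, in every library. Per kb of the longest protein-coding transcript in place of all exons, the PBS mean of ARNT was above that of CYP1B1, at 13.4 ± 1.30 and 11.8 ± 0.328 CPM per kb with overlapping ranges, so their order depends on the length used.

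In each library the level of CYP1B1 per kb exceeded that of CYP1A1, from 15.2-fold to 26.4-fold with PBS and from 16.3-fold to 29.9-fold with TPBC-PEG. These ranges overlap, and the scarce CYP1A1 counts set most of their width. TIPARP stood 10.7-fold to 11.3-fold above AHR per kb with PBS and 10.2-fold to 11.7-fold with TPBC-PEG. The counted level of AHR per kb was 4.35-fold to 5.52-fold below ARNT with PBS and 4.20-fold to 4.99-fold below with TPBC-PEG. AHR shares 29.4% of its exon length with another gene on the same strand, while ARNT shares none. How reads in shared exons were counted is not named, so AHR may be understated in both ratios, which was not tested.

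The short element bound by AHR with ARNT has the core GCGTG, written CACGC where it lies on the other strand. RefSeq promoters (GRCh38.p14) were matched for 5 of the 6 genes, and the 250 bases before the annotated start were searched on both strands. The sequences below are those of the 3 matched induced genes (the first annotated start of each), 5′ to 3′ on the gene's own strand, with the core in capitals; they show where the element lies in a gene that rose, TIPARP, and in AHRR and CYP1A1, which did not pass.
TIPARP, chr3:156674340-156674589, plus strand: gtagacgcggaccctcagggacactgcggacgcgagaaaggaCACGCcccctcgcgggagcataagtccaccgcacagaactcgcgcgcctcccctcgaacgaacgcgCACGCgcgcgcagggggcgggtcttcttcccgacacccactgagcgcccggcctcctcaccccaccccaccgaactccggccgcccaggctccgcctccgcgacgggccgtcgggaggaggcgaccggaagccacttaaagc
AHRR, chr5:321464-321713, plus strand: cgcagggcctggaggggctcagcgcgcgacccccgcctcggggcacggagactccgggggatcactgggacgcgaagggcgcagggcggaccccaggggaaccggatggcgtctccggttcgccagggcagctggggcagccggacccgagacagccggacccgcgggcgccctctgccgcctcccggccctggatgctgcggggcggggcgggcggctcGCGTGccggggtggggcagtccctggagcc
CYP1A1, chr15:74725529-74725778, minus strand: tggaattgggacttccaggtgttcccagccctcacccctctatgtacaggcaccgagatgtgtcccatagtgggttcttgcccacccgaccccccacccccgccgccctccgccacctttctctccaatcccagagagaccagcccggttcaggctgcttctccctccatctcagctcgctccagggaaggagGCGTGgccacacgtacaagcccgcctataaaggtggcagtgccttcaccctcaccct

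TIPARP has 2 cores, both on the other strand, beginning 208 and 142 bases before the start. AHRR has 1, at 30 bases, which also matches the longer form TNGCGTG that contains the core, and CYP1A1 has 1, at 57 bases. The windows of AHR and ARNT hold no match to these letters. The second annotated start of AHRR holds 2 cores, at 247 and 42 bases, and the other starts of TIPARP hold none. The best-known AHR elements of CYP1A1 lie in an enhancer further upstream, outside this window.

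The core is common, so a match is a description and not a binding site. It was present in 32.2% of the 35116 promoter windows of this length, and TNGCGTG in 4.52%. Among tested genes, taking the first start of each, 45.7% of those called higher, 47.6% of those called lower and 44.9% of those not called held the core. The longer form stood in 6.16%, 5.30% and 5.99% of these windows. Promoters with the core were thus at similar shares in all 3 classes.

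The cytosolic complex that holds AHR, and the machinery that moves or degrades it, fell in most of its parts. Of 11 genes, all tested, 9 were called lower, against 16.9% of all genes, and the median log2 fold change was -0.22. HSP90AA1 and HSP90AB1, the 2 HSP90 genes, fell by 0.57 ± 0.04 and 0.31 ± 0.04 (log2, SE), from 4540 ± 225 to 3057 ± 63.5 CPM and from 3577 ± 218 to 2885 ± 14 CPM (SD, n = 3). PTGES3, which encodes p23, fell by 0.22 ± 0.04. KPNA2, an importin, and XPO1, the exportin of nuclear proteins, fell by 0.36 and 0.23. CUL4B, the ubiquitin ligase scaffold tied to AHR, fell by 0.17, and DDB1, its adaptor, did not pass at -0.05. STUB1, the ubiquitin ligase CHIP that works with HSP90, was called lower at -0.17, and lost that call in 10 of 18 alternatives, among them those without PBS replicate 1 or 3 and without TPBC-PEG replicate 1 or 2 (edgeR adjusted p = 0.154, 0.113, 0.104 and 0.362). RBX1, the RING subunit of the cullin ligases, was called lower at -0.19, and lost its call in 3, which were those without PBS replicate 1 (edgeR adjusted p = 0.0758), without TPBC-PEG replicate 2 (0.0651) and with scaling by total counts alone (0.0704). HSP90 and the transport factors serve many other proteins, and the heat shock genes were known to be lower from earlier results of these data.

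The bHLH-PAS relatives, which share ARNT's dimerisation fold, went the other way. Of 13 tested genes among 16, 7 were called higher, against 16.2% of all genes, with a median of 0.23. EPAS1, the hypoxia factor HIF-2α that pairs with ARNT, rose by 0.69 ± 0.05, from 72.9 ± 0.801 to 118 ± 3.88 CPM (SD, n = 3). HIF1A, which competes for the same partner, did not pass, at 327 ± 12.4 and 323 ± 5.21 CPM. The p160 coactivators NCOA3 and NCOA2, which are recruited by AHR and by nuclear receptors, rose by 0.56 ± 0.05 and 0.33 ± 0.06. BMAL1, CLOCK and NPAS2 of the circadian clock rose by 0.39, 0.23 and 0.34, and ARNT2, the close homologue of ARNT, by 0.26 ± 0.07. The ARNT2 call was lost without TPBC-PEG replicate 2 (edgeR adjusted p = 0.0564). ARNT2 stood at 31.3 ± 1.79 and 37.4 ± 2.67 CPM.

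Among 10 coregulators, 4 were called lower, against 16.9% of all genes, with a median of -0.07. This list leaves out the p160 coactivators, which were counted with the bHLH-PAS relatives. Of these NCOA2 and NCOA3 were called higher and NCOA1 did not pass, so the counts of both lists depend on that placement. SMARCA4, the BRG1 ATPase that AHR recruits to CYP1A1, fell by 0.28 ± 0.04 (log2, SE), and HDAC1, a histone deacetylase, by 0.25 ± 0.04. CARM1, an arginine methyltransferase, fell by 0.17 ± 0.06, a call lost without TPBC-PEG replicate 1 (edgeR adjusted p = 0.0886), with scaling by total counts alone (0.0937) and with the GC trend removed (0.148). The acetyltransferase genes EP300 and CREBBP did not pass, at 0.04 and 0.08.

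Other genes that AHR ligands induce in some cells were higher more often than lower. Of 13 tested genes among 21, 9 were called higher, against 16.2% of all genes, and 1 lower, with a median of 0.27. The genes most closely tied to AHR in liver and epithelium, CYP1A2, UGT1A6, ALDH3A1, GSTA1 and GSTA2, had a count of 0 in all libraries. UGT1A6 shares 44.0% of its exon length with other genes on the same strand. How reads in shared exons were counted is not named, so its 0 does not show that it was absent. The largest rises were those of PTGS2, the inducible cyclooxygenase, by 2.16 ± 0.09 (log2, SE), SERPINB2, plasminogen activator inhibitor 2, by 1.33 ± 0.30, and AREG, an EGF receptor ligand, by 1.08 ± 0.28. SERPINB2 and AREG were scarce, at 0.864 ± 0.164 and 1.18 ± 0.468 CPM with PBS and 2.17 ± 0.383 and 2.55 ± 0.433 CPM with TPBC-PEG (SD, n = 3).

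Members of that list respond to other factors too. NQO1, the quinone reductase, rose by 0.26 ± 0.04 and NFE2L2, the NRF2 gene, by 0.27 ± 0.05; NQO1 is also the standard NRF2 target. SLC7A5, a large neutral amino acid transporter that carries the AHR ligand kynurenine, and STC2, stanniocalcin 2, rose by 0.37 ± 0.04 and 0.27 ± 0.04, and both are also targets of ATF4. IL1B rose by 0.61 ± 0.07. IL6 rose by 0.89 ± 0.34 from 0.818 ± 0.365 CPM, and lost its call without PBS replicate 1 or 3 and without TPBC-PEG replicate 1 or 2 (edgeR adjusted p from 0.111 to 0.189). With 8 counts in PBS replicate 3, IL6 passed the filter on low counts only through the TPBC-PEG libraries, where it is high. Its call and its place in the count of 9 genes called higher are thus given as a description. EDN1, endothelin 1, fell by 0.79 ± 0.08, and HES1, a Notch target that AHR can induce, did not pass at -0.19. HES1 passed as lower without PBS replicate 3 (edgeR adjusted p = 0.0122) and without TPBC-PEG replicate 2 (0.0418), so the count of lower genes was then 2.

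**Figure D3:**
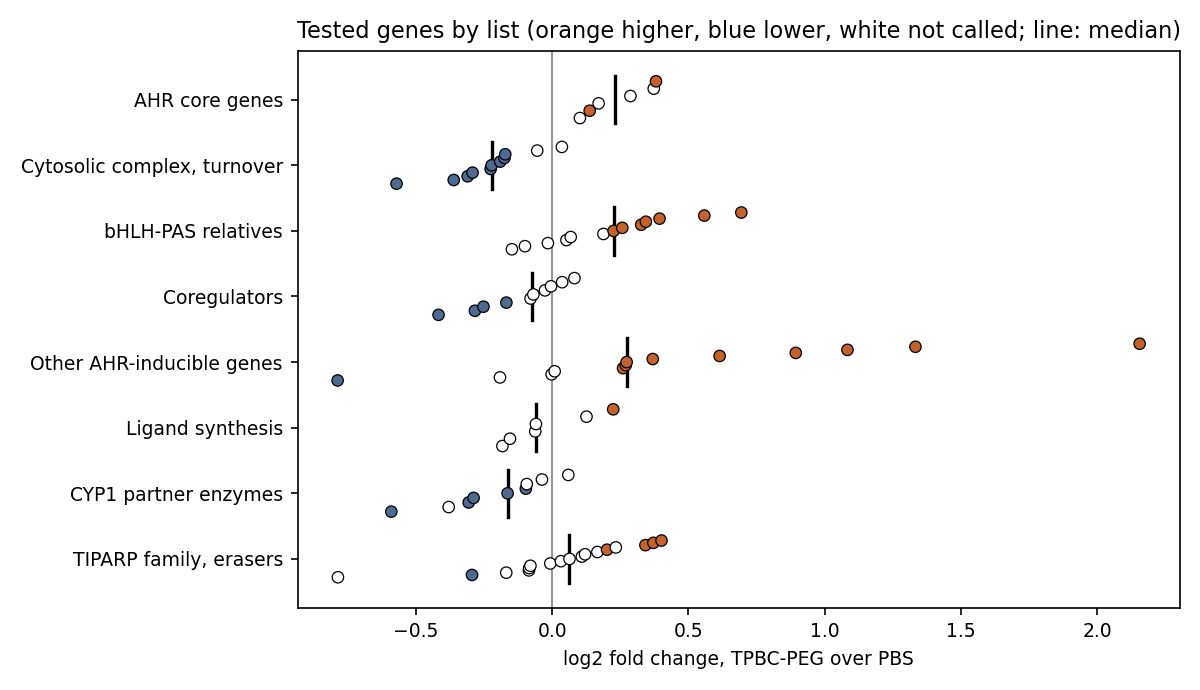
Log2 fold change (horizontal axis) of every tested gene among the 6 AHR genes and in 7 lists around them (adjoining genes are not drawn), 1 row of points per list, in order of value, with a line at the list's median. Orange points were called higher, blue points lower and white points not called: the cytosolic complex lies mostly below 0 (median -0.22) and the other inducible genes mostly above it (median 0.27).

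Enzymes of the kynurenine and indole routes from tryptophan, only some of which make AHR ligands, were largely missing. They are called the ligand synthesis genes here. Of 15 genes 6 passed the filter, and IDO1, IDO2 and TDO2, which open the kynurenine pathway, had between 0 and 3 counts in any library. KYAT3, a kynurenine aminotransferase, was the 1 gene called, higher by 0.22 ± 0.07 (log2, SE), from 30.2 ± 1.75 to 35.3 ± 0.977 CPM (SD, n = 3), a call lost without PBS replicate 2 (edgeR adjusted p = 0.0658). AADAT, another aminotransferase, did not pass at -0.18, but passed as lower without TPBC-PEG replicate 1 (edgeR adjusted p = 0.0489). Of the 6 tested genes 16.7% were called, against 33.2% of all genes, and the median of the list was -0.06.

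Of 9 tested electron donors and phase II partners of the CYP1 enzymes among 15, 5 were called lower, against 16.9% of all genes, with a median of -0.16. HSD17B2, which oxidises oestradiol, fell by 0.59 ± 0.16, CYB5A, cytochrome b5, by 0.31 ± 0.08, and GSTM1, a glutathione transferase, by 0.29 ± 0.07. POR, the reductase that feeds electrons to CYP1B1, did not pass, at 20.8 ± 2.84 and 21.8 ± 2.53 CPM (SD, n = 3). The calls of CYB5R3 and GSTP1, at -0.16 and -0.10, were lost without TPBC-PEG replicate 2 (edgeR adjusted p = 0.0707 and 0.0903), which left 3 of the 5. GSTP1 lost its call in 11 of 18 alternatives. Among them were those without PBS replicate 2, PBS replicate 3 or TPBC-PEG replicate 1 (edgeR adjusted p = 0.0949, 0.11 and 0.18).

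The ADP-ribosyltransferase family of TIPARP and its erasers gave 4 genes called higher and 1 lower of 17 tested among 19, a share of 29.4% against 33.2% of all genes, with a median of 0.06. PARP8 and PARP14 rose by 0.40 ± 0.07 and 0.37 ± 0.07, more than TIPARP itself, and OARD1, which removes ADP-ribose from proteins, rose by 0.34 ± 0.07. PARP12 rose by 0.20 ± 0.07, a call lost without PBS replicate 1 or 2 or TPBC-PEG replicate 1 or 2 (edgeR adjusted p from 0.0654 to 0.0939). PARP1, the main poly-ADP-ribosyltransferase of DNA repair, fell by 0.29 ± 0.04. PARP10, with a mean below 1 CPM in both groups, did not pass at -0.79, and passed as lower without TPBC-PEG replicate 3 (edgeR adjusted p = 0.0437). In that setting it passed the filter on low counts only through the PBS libraries, where it is high, so that call is given as a description.

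Genes that adjoin or overlap the 6 on the chromosome were compared as well, with 15 tested of 17 matched among 18. Of these 3 were called higher and 1 lower, a share of 26.7% against 33.2% of all genes, with a median of 0.05. AHR's neighbour AGR2, which encodes a protein disulfide isomerase of the endoplasmic reticulum, had 2 counts in the PBS libraries together and 72 in the TPBC-PEG libraries together, a ratio of 34.0 (exact counting interval 9.09 to 286). By library AGR2 had 1, 1 and 0 counts with PBS and 15, 31 and 26 with TPBC-PEG. It passed the filter on low counts only through the TPBC-PEG libraries, where it is high, and it was not tested under the filter of 1 CPM in 3 libraries, so its call and its place in the count of 3 are given as a description. SNX13, a sorting nexin gene also near AHR, rose by 0.34 ± 0.06 (log2, SE). SSR3, beside TIPARP and part of the translocon of the endoplasmic reticulum, rose by 0.24 ± 0.04. CSK, a kinase gene near CYP1A1, fell by 0.22 ± 0.05. PDCD6, next to AHRR, did not pass at -0.18, and passed as lower without PBS replicate 3 (edgeR adjusted p = 0.0383) and without TPBC-PEG replicate 3 (0.012), which made 2 genes lower.

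The 6 AHR genes had 0 called lower by edgeR, 0 at an unadjusted p under 0.05 and 0 by DESeq2 or limma-voom. In 5 of the lists around them 1 direction held no called gene by edgeR. Over all genes 16.2% were called higher and 16.9% lower, so a count of 0 among 6 to 13 tested genes is a description only. The cytosolic complex, the coregulators and the CYP1 partners had 0 called higher, 0 at an unadjusted p under 0.05, and 0 by DESeq2 or limma-voom. The coregulator list leaves out the p160 coactivators, which were counted with the bHLH-PAS relatives. The bHLH-PAS relatives had 0 called lower, 1 at an unadjusted p under 0.05 (BMAL2, at -0.10) and 0 by DESeq2 or limma-voom. The ligand synthesis genes had 0 called lower, 0 at an unadjusted p under 0.05 and 0 by either other tool.

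Genes whose level followed each of the 6 over the 6 libraries were sought among 9632 other named genes that averaged 10 CPM or more. For CYP1B1 these were TFPI, ZBTB21 and POPDC3 (Pearson's r of log2 CPM 0.9997, 0.9992 and 0.998), which rose by 0.47, 0.56 and 0.80. For TIPARP they were RGMB, DYM and GID4 (r 0.997, 0.997 and 0.996), with differences of 0.14, 0.25 and 0.34. The call of RGMB was lost without PBS replicate 1 or 3 or TPBC-PEG replicate 1 (edgeR adjusted p = 0.0687, 0.0528 and 0.15). AHR was followed most closely by SH3BP4, PIGL and RP2 (0.979, 0.971 and 0.971), ARNT by AKAP13, ST7 and ZNF7 (0.990, 0.989 and 0.985), AHRR by ALG3, FHIP2B and HERPUD2 (0.983, 0.983 and 0.982) and CYP1A1 by APPBP2, RNF144A and MAP2K7 (0.973, 0.960 and 0.951).

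These r values describe 6 libraries that form 2 groups and share their scaling, and the best of many genes will reach a high r. Among the 6 themselves CYP1B1 and TIPARP were the most alike (r 0.893), followed by AHR and TIPARP (0.824) and AHR and CYP1A1 (0.775). ARNT and CYP1A1 gave -0.246.

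**Figure D4:**
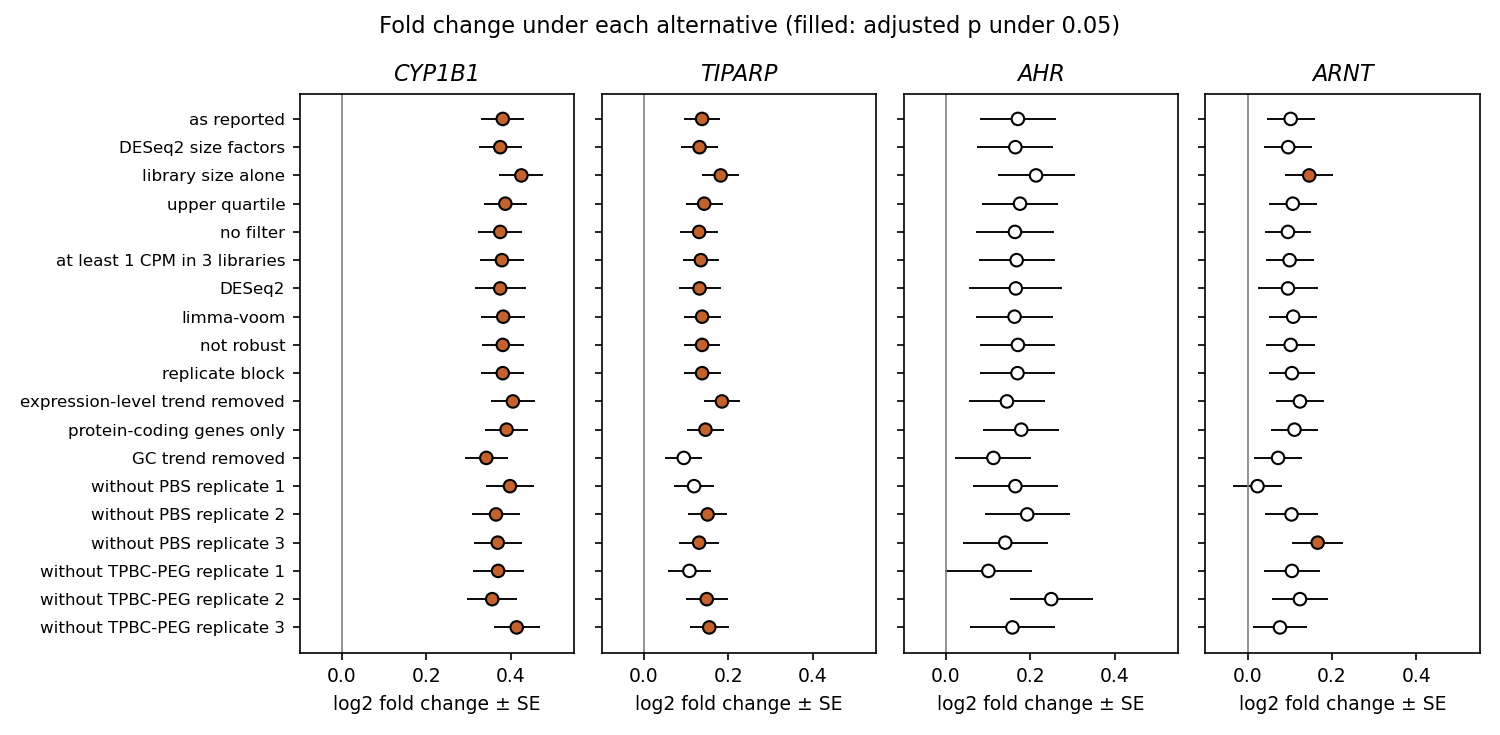
Log2 fold change ± SE (horizontal axes) of CYP1B1, TIPARP, AHR and ARNT as reported and under 18 other settings, 1 per line; filled points have an adjusted p under 0.05. CYP1B1 is filled in all lines (0.342 to 0.425), TIPARP is open in 3, ARNT is filled in 2 and AHR in none.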

How the data were processed

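RNA was sequenced from 143B cells in 3 PBS and 3 TPBC-PEG libraries, grouped and numbered by the sample titles. The authors deposited raw read counts per gene. The submitters' processing notes name HISAT2 and the genome build GRCh38; its version, the counting program, the annotation release and the strand setting are not named there. Of 60683 rows, 58496 were in GENCODE 29, which gave positions and exon lengths.

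Genes were kept by filterByExpr (minimum count 10, minimum total 15), leaving 15846, and scaled by TMM. The edgeR 4.0.16 quasi-likelihood test (robust, group only; R 4.3.3) compared TPBC-PEG with PBS, with Benjamini-Hochberg adjustment over all genes and a call at an adjusted p under 0.05. Standard errors came from the F statistic and 95% intervals from its degrees of freedom. The common biological coefficient of variation was 4.19%. Log2 CPM used a prior count of 2. Counting intervals and limits cover counting error only, since reads carried no molecular identifiers. The script was tested on simulated data.

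The 6 genes and all lists were chosen with earlier results of these data known. Named by rule were the 6, up to 3 called genes in each direction of every other list, taken by size of change among those reaching 1 CPM, and the 3 most alike genes of each; other list genes are named for their role, or because leaving out a library changed their call. Some list genes, counted in the totals, are not reported here by name. Alternatives were DESeq2 size factors, total counts or upper quartile scaling; no filter or 1 CPM in 3 libraries; DESeq2 1.42.0; limma-voom 3.58.1; non-robust estimation; the replicate number as a block; protein-coding genes alone; removal of the trend with expression level (lowess span 0.3); leaving out each library; and, added after seeing the data, removal of the GC trend. No library was a copy of another: chi-square statistics between replicates were 2.26 to 4.26 times their degrees of freedom. Mitochondrial mRNA took 5.42% to 6.32% of counts with PBS and 4.75% to 4.92% with TPBC-PEG; its part in the results was not tested.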

Additional observations from a re-analysis of the deposited data

How the results depend on the processing

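No direction among the 6 genes or the listed counts was reversed by any of the 18 alternatives, and the calls of CYP1B1, AHR, AHRR and CYP1A1 held in each. ARNT passed with scaling by total counts alone (0.146, log2), and TIPARP lost its call with the GC trend removed (0.0946). Leaving out 1 library at a time gave 0.0234 to 0.166 for ARNT and 0.108 to 0.155 for TIPARP. The count of bHLH-PAS relatives called lower went from 0 to 1 (BMAL2) with DESeq2 size factors, with the 1 CPM filter and with the GC trend removed. CYP1 partners called lower went from 5 to 3 with total counts alone and with the GC trend removed. The latter setting also gave 2 in place of 1 lower gene in the TIPARP family and among the other inducible genes. With 1 library left out, the genes called lower numbered 1 to 2 among adjoining genes, 0 to 1 among bHLH-PAS relatives, 3 to 5 among CYP1 partners, 0 to 1 in ligand synthesis, 1 to 2 in the TIPARP family and 1 to 2 among other inducible genes. Ligand synthesis genes called higher numbered 0 to 1. The 9 genes of the cytosolic complex called lower became 7 to 9 with 1 library left out, 7 with total counts alone and 8 with DESeq2, upper quartile scaling, non-robust estimation or either trend removed. The cause of these moves was not tested.

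Replicate numbers did not pair the libraries: same-numbered libraries correlated at 0.00336, 0.0646 and -0.0154 in their deviations from the group means, and not every library correlated best with its own number. With the replicate block, the number of genes called higher, all genes counted, was 2531 in place of 2574, and that of genes called lower, all genes counted, was 2644 in place of 2682. In the same fit CYP1B1 was 0.381, TIPARP 0.138, ARNT 0.105 and AHR 0.170 (log2), and no call among the 6 changed. Depth limits AHRR and CYP1A1, at 21 to 56 counts a library.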
